A study of Mus musculus with 4 samples.

Results

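The Dlx genes (Dlx1 to Dlx6) and the Msx genes (Msx1 to Msx3) encode homeobox transcription factors that pattern the head, the teeth and glands of the mouth, the limbs and the nervous system. The 9 genes were taken by symbol as the members of these families, with earlier results of these data known. All 9 were found among the 24771 features of the expression table, of which 22036 were Ensembl genes. The study asked how closely salivary gland (SG) placodes made from pluripotent stem cells (PSCs) resemble embryonic submandibular glands (SMGs). RNA was sequenced from 2 samples of the PSC-derived SG placodes, taken on day 10 of culture, and from 2 samples of mouse SMGs at E12.5, where E stands for embryonic day. The placodes came from 129w2, a single line of mouse embryonic stem cells, grown as aggregates from 3000 cells in each well with 2% Matrigel. BMP4 was added at 2 ng/ml on day 3, retinoic acid at 1 μM with bFGF at 25 ng/ml on day 4, and FGF10 at 200 ng/ml on day 6. The SMGs were taken from embryos, and their strain, their dissection and any pooling are not given in the sources used here. No genetic change is named for either group. Nothing in the labels says that the 2 samples of a group came from separate cultures or animals, so p-values measure only the spread between these samples, which may be technical.

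In vertebrates the Dlx genes lie in neighbouring pairs that point toward each other and share enhancers. In the pharyngeal arches, endothelin signalling switches on Dlx5 and Dlx6, which give the lower jaw region its identity, while Dlx1 and Dlx2 act in both the upper and the lower jaw and also drive the formation of inhibitory neurons in the ventral forebrain. Dlx3 and Dlx5 mark the non-neural ectoderm and the border of the neural plate, and Dlx3 later acts in skin, hair and placenta. Msx1 and Msx2 are classic targets of BMP signalling, work mostly as repressors, and are needed for teeth and palate. Msx3 differs from them in that its expression in the embryo is limited to the dorsal neural tube.

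The called members of the families differed in opposite directions. Dlx1, Dlx2, Dlx5 and Dlx6 were expressed in the SMGs and were lower in the placodes, whereas Msx3 had a value of 0 in each SMG sample and led the members in the placodes. Dlx3 and Msx1 were low in both groups, Msx2 was low and seen almost wholly in the placodes, and Dlx4 was near 0 everywhere. Values are FPKM, the fragments mapped to a gene corrected for the length of its transcript and for the number of fragments mapped in that sample, so levels can be set against each other between genes. Tests used limma on log2(FPKM + 1) over the 13193 features with a mean FPKM of at least 1, and a gene was called at a Benjamini-Hochberg adjusted p below 0.05. Of the 9 genes, 6 reached that mean, of which 1 was called higher in the placodes, 4 were called lower and 1 was not called. The groups were far apart in general, since 76.2% of all tested features were called, 35.7% as higher and 40.4% as lower in the placodes. At an additional difference of at least 2-fold, that is a log2 difference of at least 1, 29.4% of tested features were called, 14.1% as higher and 15.2% as lower, and all 5 called members passed this limit. A gene that reached the minimum through its level in a single group had to differ between the groups, as Dlx1, Dlx2, Dlx5, Dlx6 and Msx3 did, so the count of called members is given as a description.

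Promoter sequences are shown for 3 members that span the pattern: Dlx2, higher in the SMGs, Msx3, higher in the placodes, and Msx1, low in both. Each run covers the 240 bases from 250 to 11 bases before the RefSeq start of the gene on GRCm38.p6, 5′ to 3′ on the gene's strand, and the capitals mark matches to the motifs named after the sequences.
Dlx2, chr2:71546765-71547004, minus strand: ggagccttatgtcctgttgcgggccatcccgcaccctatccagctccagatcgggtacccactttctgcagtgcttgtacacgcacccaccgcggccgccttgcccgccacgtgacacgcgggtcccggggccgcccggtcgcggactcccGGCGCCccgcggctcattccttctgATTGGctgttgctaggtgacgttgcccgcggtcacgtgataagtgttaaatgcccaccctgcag
Msx1, chr5:37824596-37824835, minus strand: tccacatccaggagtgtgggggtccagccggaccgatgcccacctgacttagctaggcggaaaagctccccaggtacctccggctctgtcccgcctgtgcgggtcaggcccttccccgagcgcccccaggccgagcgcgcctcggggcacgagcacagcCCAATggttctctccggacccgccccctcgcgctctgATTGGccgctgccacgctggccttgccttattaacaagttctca
Msx3, chr7:140049099-140049338, minus strand: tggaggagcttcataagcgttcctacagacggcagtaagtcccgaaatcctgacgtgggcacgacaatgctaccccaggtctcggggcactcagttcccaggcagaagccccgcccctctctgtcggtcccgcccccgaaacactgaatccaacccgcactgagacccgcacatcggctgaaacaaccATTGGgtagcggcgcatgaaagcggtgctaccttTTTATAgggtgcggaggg

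RefSeq promoters were given for 5 of the 9 members, and those of Dlx1 and Msx2 are not printed because their windows lie inside exons of a longer annotated transcript. All 5 windows were rich in G and C, at 67.5% for Dlx1, 65.8% for Dlx2, 67.1% for Msx1, 60.4% for Msx2 and 59.6% for Msx3, against a median of 52.1% over 32851 mouse promoter windows of the same length. They held 16 to 24 CpG dinucleotides each, against a median of 5. The motifs were searched on both strands. The CCAAT box (CCAAT or ATTGG) was in 4 of the 5 windows, those of Dlx2, Msx1, Msx2 and Msx3, and in 33.0% of all promoter windows. TAATT or AATTA, the core that homeodomains bind, was in the window of Msx2 alone and in 24.6% of all windows. GGCGCC, which Smad1 and Smad5 bind, was in the window of Dlx2 and in 9.08% of all windows. AGGTCA or TGACCT, a nuclear receptor motif, was in that of Dlx1 and in 13.5% of all. TATAAA or TTTATA was in that of Msx3, on the opposite strand, and in 12.1% of all.

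**Figure D1:**
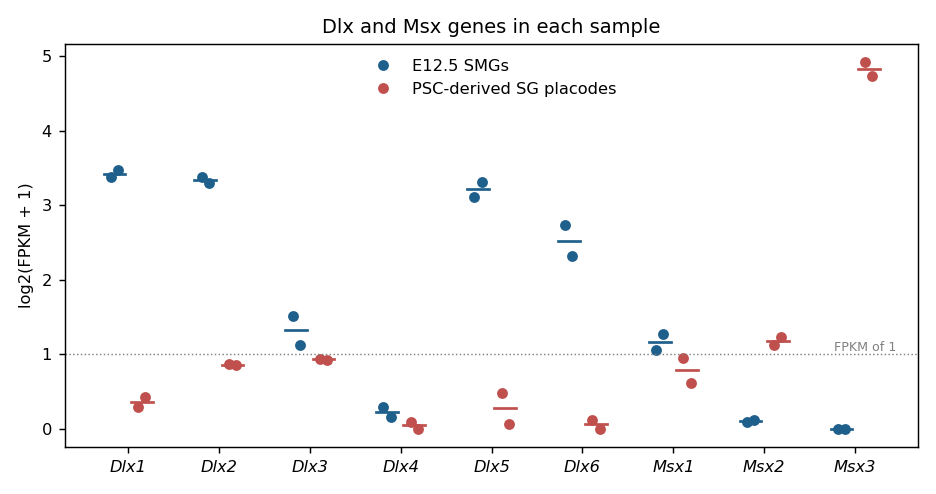
Expression of the 9 genes in each sample as log2(FPKM + 1), with blue points for the 2 E12.5 SMG samples, red points for the 2 PSC-derived SG placode samples, and bars at group means. Dlx1, Dlx2, Dlx5 and Dlx6 stand high in the SMGs, Msx3 stands high in the placodes at 29.3 and 25.7 FPKM, and the other 4 genes lie near or under an FPKM of 1, which the dotted line marks.

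Dlx1 (ENSMUSG00000041911, chr2:71528113-71533981, plus strand) and Dlx2 (ENSMUSG00000023391, chr2:71543408-71546754, minus strand) point toward each other with 9426 bp between them. Dlx1 had 9.37 and 10.1 FPKM in the SMGs and 0.228 and 0.337 FPKM in the placodes. It was the leading Dlx gene of the SMGs by its mean of 9.73 ± 0.509 FPKM (SD, n = 2), and its mean there was 34.4 times that in the placodes. On the log2(FPKM + 1) scale Dlx1 fell by 3.06 (SE 0.11, limma adjusted p = 1.89e-06) in the placodes relative to the SMGs. Its partner Dlx2 had 9.37 and 8.83 FPKM in the SMGs and 0.819 and 0.812 FPKM in the placodes, an 11.2-fold ratio of means. The log2 difference of Dlx2 was −2.48 (SE 0.10, adjusted p = 2.92e-06). Both genes were therefore several-fold higher in each SMG sample than in any placode sample, and the placode samples were close to each other. The genes of the pair were at matching levels in the SMGs, where the FPKM of Dlx1 was 0.999 and 1.14 times that of Dlx2. In the placodes the ratio of Dlx1 to Dlx2 was 0.279 and 0.415, so that Dlx2 was the higher gene of the pair in both samples.

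Dlx5 (ENSMUSG00000029755, chr6:6877805-6882085, minus strand) and Dlx6 (ENSMUSG00000029754, chr6:6863334-6868568, plus strand) are the endothelin-responsive pair of the lower jaw, with 9236 bp between them. Dlx5 had 7.66 and 8.91 FPKM in the SMGs and 0.393 and 0.0447 FPKM in the placodes, and its SMG mean was 37.8 times that in the placodes. On the log2(FPKM + 1) scale Dlx5 fell by 2.94 (SE 0.17, adjusted p = 1.30e-05). Dlx6 had 5.64 and 3.97 FPKM in the SMGs and 0.0873 FPKM in 1 placode sample, and was listed at 0 in the other. The log2 difference of Dlx6 was −2.46 (SE 0.16, adjusted p = 2.74e-05). All SMG values of this pair were above all placode values, and the placode values, differed several-fold between the samples. Because these levels are close to 0, the size of the difference depends on the pseudocount. Over the alternative settings that kept each gene in the test, it ranged from −5.94 to −2.73 for Dlx5 and from −8.98 to −2.25 for Dlx6. Likewise, Dlx1 ranged from −5.13 to −3.00 and Dlx2 from −3.48 to −2.43. For all 4 genes, each of these settings with 2 samples per group was past the threshold. With a minimum mean FPKM of 5, Dlx2, Dlx5 and Dlx6 were not tested. Dlx5 was the higher gene of its pair in both SMG samples, at 1.36 and 2.25 times Dlx6.

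Dlx3 (ENSMUSG00000001510, chr11:95120119-95125296, plus strand), the non-neural ectoderm gene, was the Dlx gene that differed least among those tested. It had 1.85 and 1.19 FPKM in the SMGs and 0.916 and 0.897 FPKM in the placodes. The groups did not overlap, as was true of 88.4% of tested features, but the difference of −0.39 on the log2(FPKM + 1) scale (SE 0.15, 95% interval −0.77 to −0.01) did not pass the adjusted threshold (adjusted p = 0.0582). The outcome hung on SMG sample 2, without which the difference was −0.58 and the adjusted p was 0.0115. Without SMG sample 1 it was −0.20 (adjusted p = 0.165), and without trend in limma's variance step the adjusted p was 0.0492. In the placodes, Dlx3 was nonetheless the leading Dlx gene, with 36.5% and 42.9% of the summed Dlx FPKM, compared with 5.41% and 3.59% in the SMGs. Dlx4 (ENSMUSG00000020871, chr11:95140447-95146263, minus strand), the partner of Dlx3 across 15150 bp and a gene known mainly from placenta, had 0.219 and 0.115 FPKM in the SMGs, 0.0647 FPKM in 1 placode sample and 0 in the other. It was not tested because its mean of 0.0996 FPKM was below the minimum.

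Summed over the 6 Dlx genes, the level was 34.1 and 33.1 FPKM in the SMGs and 2.51 and 2.09 FPKM in the placodes. The means of 33.6 ± 0.717 and 2.30 ± 0.295 FPKM (SD, n = 2 each) differed 14.6-fold. In the SMGs, Dlx2 overlapped in level with both Dlx1 and Dlx5, while Dlx1 was above Dlx5. Dlx6 was below these genes, then Dlx3, and Dlx4 last. In the placodes the order was Dlx3, then Dlx2, then Dlx1, with Dlx6 and Dlx4 at the bottom and overlapping. Dlx5 differed between the placode samples and overlapped with Dlx1, Dlx6 and Dlx4. An exact two-sided permutation test of a single gene between 2 and 2 samples cannot give a p below 0.333, which was the value for each of the 9 genes, so the calls rest on the spread that limma shares across all features.

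**Figure D2:**
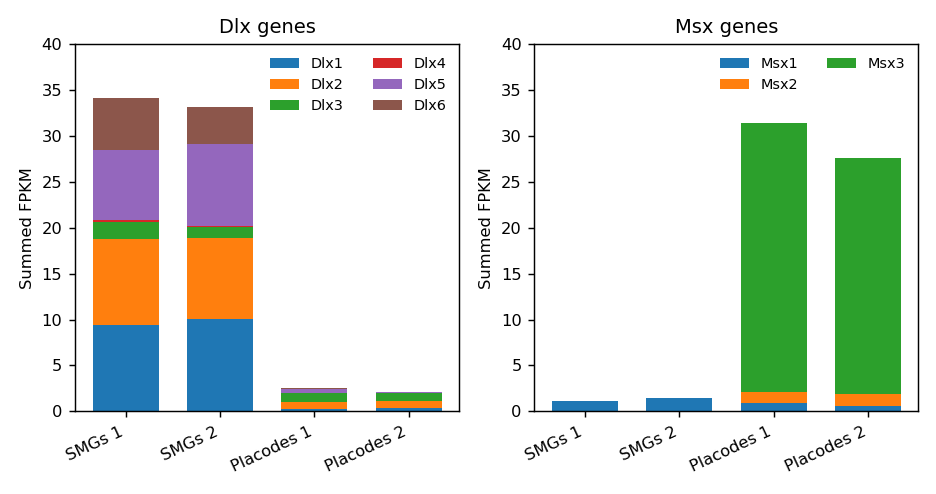
Summed FPKM of the Dlx genes (left) and of the Msx genes (right) in each sample, with 1 colour per gene and bars that start at 0. The Dlx sum was 34.1 and 33.1 in the SMG samples and 2.51 and 2.09 in the placode samples, while the Msx sum was 1.15 and 1.51 in the SMG samples and 31.4 and 27.5 in the placode samples, nearly all of it Msx3.

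Msx3 (ENSMUSG00000025469, chr7:140046157-140049089, minus strand), the dorsal neural tube gene, had 29.3 and 25.7 FPKM in the placodes and 0 FPKM in each SMG sample. No fold change is given because the SMGs were at 0, and the difference passed the threshold (limma adjusted p = 3.63e-07). Both SMG samples were at 0 for 85 of the tested features, or 0.644%. Msx3 held 93.3% and 93.2% of the summed Msx FPKM of the placodes and was the leading gene of the 9 there, above 88.5% of all features by mean level. Its placode mean of 27.5 ± 2.55 FPKM (SD, n = 2) was also above the SMG mean of every Dlx gene.

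Msx2 (ENSMUSG00000021469, chr13:53466884-53473074, minus strand), a BMP target in skull, skin appendages and teeth, had 1.17 and 1.34 FPKM in the placodes and 0.0660 and 0.0841 FPKM in the SMGs. Its placode mean was 16.7 times the SMG mean, but its mean over all samples of 0.664 FPKM kept it out of the test. When the test was run with no minimum, over 20464 features of which 58.1% were called, Msx2 was higher in the placodes by 1.07 on the log2(FPKM + 1) scale (adjusted p = 7.35e-04). Msx1 (ENSMUSG00000048450, chr5:37820485-37824583, minus strand), needed for tooth and palate formation, had 1.09 and 1.42 FPKM in the SMGs and 0.934 and 0.536 FPKM in the placodes. Its mean of 0.994 FPKM lay just under the minimum, and with no minimum its difference of −0.38 did not pass the threshold (adjusted p = 0.109). Msx1 entered the main test only when a placode sample was left out, with a difference of −0.55 (adjusted p = 0.0466) without placode sample 1 and −0.22 (adjusted p = 0.276) without placode sample 2. Msx1 made up 94.3% and 94.4% of the Msx sum in the SMGs, and Msx2 the rest. The Msx sum was 31.4 and 27.5 FPKM in the placodes and 1.15 and 1.51 FPKM in the SMGs, with means of 29.5 ± 2.72 and 1.33 ± 0.251 FPKM (SD, n = 2 each), a 22.2-fold difference. The ratio of the Dlx sum to the Msx sum was 29.6 and 22.0 in the SMGs and 0.0799 and 0.0759 in the placodes.

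With detection set at 1 FPKM or more in each sample of a group, 6 of the 9 genes were detected in the SMGs (Dlx1, Dlx2, Dlx3, Dlx5, Dlx6 and Msx1) and 2 in the placodes (Msx2 and Msx3). At this level no gene was detected in both groups, with Dlx3 in the placodes just below it, whereas at 0.1 FPKM 4 genes (Dlx1, Dlx2, Dlx3 and Msx1) were detected in both. SMG values were above placode values for 7 members and below them for 2, with no overlap for any. Among all tested features the SMGs were above without overlap in 46.8% and the placodes in 41.6%. Over the 5 tested members that were not at 0 in a group, the median log2 difference was −2.48, compared with −0.05 over all tested features, as a description with the same limit on genes that reached the minimum in a single group.

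The genes beside each member on the chromosome were taken as the nearest protein-coding gene on either side in GENCODE M21, an annotation of GRCm38. The called members reached the minimum through a single group and had to differ, so their sizes are no measure for these neighbours. Of 12 such neighbours, 2 were higher, 4 were lower, 3 were not called and 3 were not tested. Over all tested features, 76.2% were called, and 29.4% were called at 2-fold or more. Metap1d, 2.92 kb from the Dlx1 and Dlx2 pair, had means of 6.14 FPKM in the placodes and 5.53 FPKM in the SMGs and was not called (adjusted p = 0.205). On the other side of this pair, the integrin gene Itga6 fell by 0.81 on the log2 scale (adjusted p = 1.22e-04). Beside the Dlx5 and Dlx6 pair, Sem1, a proteasome subunit gene, fell by 0.21 (adjusted p = 0.0338), and Sdhaf3, which encodes an assembly factor of a mitochondrial complex, was not called (adjusted p = 0.583). Beside Dlx3 and Dlx4, the integrin gene Itga3 fell by 0.66 (adjusted p = 1.83e-03), and Tac4 was listed at 0 in all samples. None of the tested neighbours of the Dlx genes differed by 2-fold. For Msx3 both neighbours were higher in the placodes, Zfp511 by 0.66 (adjusted p = 1.50e-03) and Caly by 2.98 (adjusted p = 1.83e-05). Caly, a gene of neuronal vesicle traffic 20.8 kb from Msx3, had 11.1 and 9.13 FPKM in the placodes and 0.653 and 0.196 FPKM in the SMGs. Beside Msx2, Sptlc1, a gene of sphingolipid synthesis, fell by 0.69 (adjusted p = 1.30e-04) and Drd1 was not tested, and beside Msx1, Stx18 was not called (adjusted p = 0.911) and Cytl1 was not tested.

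**Figure D3:**
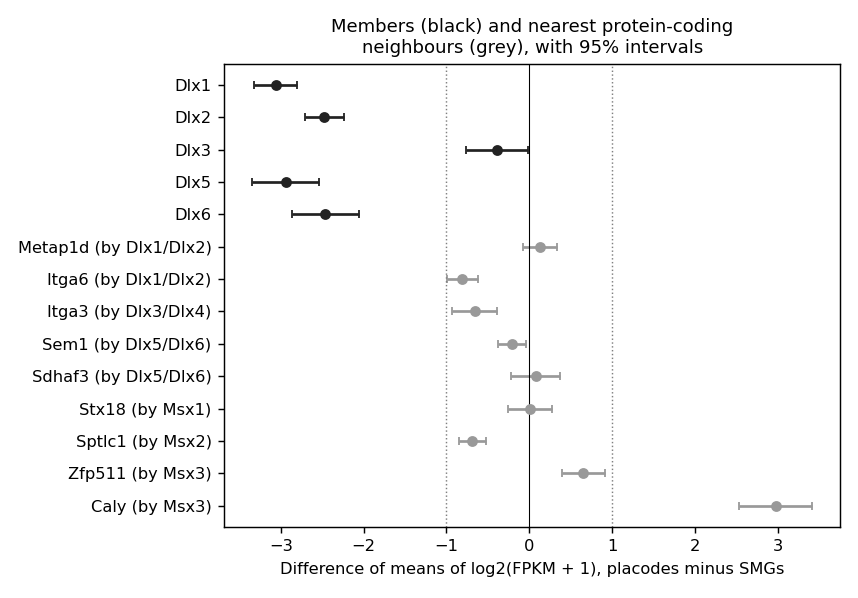
Differences of mean log2(FPKM + 1), placodes minus SMGs, with 95% intervals from limma, for the 5 tested Dlx genes (black) and the 9 tested neighbours of the Dlx and Msx genes (grey). Dotted lines mark a 2-fold difference, and Msx3 is left out because it was listed at 0 in the SMGs. Dlx1, Dlx2, Dlx5 and Dlx6 lie between −3.06 and −2.46, Dlx3 lies near 0, and Caly is the single neighbour beyond 2-fold.

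Antisense genes share exon sequence with some members: Dlx1as with 335 bp or 6.21% of the exons of Dlx1, Dlx4os with 79 bp of Dlx4, and Dlx6os2 with 104 bp of Dlx6. Whether the counting used strand is not given in the sources used here, so reads of these stretches cannot be told apart. These antisense genes were not found among the 24771 features, so no values can be given for them.

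The genes that work with Dlx5 and Dlx6 in the first pharyngeal arch were mostly lower in the placodes too. In a list of 22 genes of endothelin signalling and arch patterning, 20 were tested, of which 14 were lower, 4 were higher and 2 were not called. Their median log2 difference was −1.78. Over all tested features, 40.4% were lower and the median was −0.05. Several genes, such as Mef2c, Hand2, Gsc, Pax9 and Lhx8, reached the minimum through the SMGs alone and had to differ, so the counts are a description. This list and those that follow were drawn up with earlier results of these data known. The ligand gene Edn1 was too low for the test, at 0.231 and 0.550 FPKM in the placodes and 1.48 and 1.70 FPKM in the SMGs. Its receptor gene Ednra was expressed in both groups and fell by 0.37 (adjusted p = 4.07e-03). Hand2, a gene of the lower arch activated by Dlx5 and Dlx6, had 0.0631 and 0.268 FPKM in the placodes and 19.8 and 18.5 FPKM in the SMGs (adjusted p = 9.25e-07). Gsc, another gene of the lower jaw, had 0.0486 and 0 FPKM in the placodes and 18.6 and 16.4 FPKM in the SMGs (adjusted p = 6.31e-07). Other arch genes went the other way: Hand1 had 2.67 and 3.82 FPKM in the placodes and 0.412 and 0.0275 FPKM in the SMGs (log2 difference 1.80, adjusted p = 3.04e-04), and Gbx2 had 5.85 and 7.06 FPKM in the placodes and 0 and 0.0735 FPKM in the SMGs (log2 difference 2.84, adjusted p = 5.09e-06). The lowest of the list was Pitx1, a gene of oral ectoderm and of arch mesenchyme, with 0.539 and 0.429 FPKM in the placodes and 245 and 253 FPKM in the SMGs (log2 difference −7.40, adjusted p = 4.10e-08). The highest was Pou3f3, which acts in the upper arch and widely in the brain, with 45.9 and 46.9 FPKM in the placodes and 0.0336 and 0.0314 FPKM in the SMGs (log2 difference 5.52, adjusted p = 1.55e-07).

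Dlx3 and Dlx5 are also read as genes of the non-neural ectoderm. In a list of 15 genes of that tissue 14 were tested, of which 8 were lower, 2 were higher and 4 were not called (median −1.22). Over all tested features, 40.4% were lower. Some of the 8, such as Trp63 and Grhl2, reached the minimum through the SMGs alone and had to differ, so the counts are a description. The epithelial regulator Trp63 had 0.0286 and 0.0262 FPKM in the placodes and 13.6 and 13.2 FPKM in the SMGs (adjusted p = 6.09e-07). The highest of the list was Eya1, a placode gene, with 6.58 and 6.31 FPKM in the placodes and 2.82 and 1.60 FPKM in the SMGs (log2 difference 1.24, adjusted p = 1.07e-03). Without SMG sample 1, 4 genes of this list were higher in place of 2, because Krt8 (adjusted p = 0.0136) and Krt18 (adjusted p = 0.0223) were then called.

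Genes of the ventral forebrain programme that Dlx1 and Dlx2 serve ran against those Dlx genes. Of 14 such genes 8 were tested, and 7 were higher in the placodes, none was lower and 1 was not called. The median log2 difference was 2.82 both over all 8 and over the 6 not listed at 0 in a group. Gsx1, Sp8, Gad1, Gad2 and Slc32a1 reached the minimum through the placodes alone and had to differ. The count and the median are therefore a description, and 35.7% of all tested features were higher in the placodes. The call of Isl1 was lost without SMG sample 1 (adjusted p = 0.0708), without SMG sample 2 (adjusted p = 0.0534) and without placode sample 2 (adjusted p = 0.0758), and in the last case 5 genes of the list were called higher. Slc32a1, the vesicular transporter for GABA, had 22.4 and 22.0 FPKM in the placodes and 0.0208 and 0 FPKM in the SMGs (log2 difference 4.52, adjusted p = 3.21e-07). The GABA-synthesizing enzyme gene Gad1 had 18.3 and 19.2 FPKM in the placodes and 0 and 0.0355 FPKM in the SMGs (adjusted p = 4.28e-07). Among regional genes of that tissue, values in the placodes were low for some, with Gsx2 at 0.107 and 0.229 FPKM and Nkx2-1 at 0 and 0.0429 FPKM. Etv1, the lowest of the tested genes, was not called (log2 difference 0.25, adjusted p = 0.112).

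The dorsal neural tube, the known site of Msx3, was represented by 17 genes, of which 8 were tested, with 6 higher and 2 lower in the placodes. Their median log2 difference was 1.89, or 2.15 over the 7 not listed at 0 in a group. Over all tested features, 35.7% were higher. Zic2, Olig3, Lmx1b and Pax3 reached the minimum through the placodes alone, and Rspo2 through the SMGs alone. These genes had to differ, so the counts are a description. Pax3, which marks the dorsal neural tube and neural crest, had 20.3 and 20.5 FPKM in the placodes and 0.306 and 0.473 FPKM in the SMGs (log2 difference 3.95, adjusted p = 6.12e-07). Pax7 had 12.7 and 11.5 FPKM in the placodes and 1.27 and 0.763 FPKM in the SMGs (adjusted p = 1.02e-05), and Olig3, of dorsal progenitors, had 3.99 and 3.24 FPKM in the placodes and 0.0792 and 0 FPKM in the SMGs (adjusted p = 1.86e-05). Genes of the roof plate, at the dorsal midline, were split. Lmx1b had 3.37 and 4.27 FPKM in the placodes and 0.0325 and 0.0977 FPKM in the SMGs (log2 difference 2.17, adjusted p = 2.01e-05), and Rspo1 had 3.68 and 3.09 FPKM in the placodes and 1.03 and 0.848 FPKM in the SMGs (log2 difference 1.18, adjusted p = 2.08e-04). Others were near 0 in the placodes and too low for the test, where Lmx1a had 0.121 and 0.122 FPKM in the placodes, Wnt1 0 and 0.140 FPKM, and Wnt3a was listed at 0 in both. Gdf7 was also too low for the test, with 0.319 and 0.541 FPKM in the placodes and 0.719 and 0.531 FPKM in the SMGs. The lowest tested gene was the ligand gene Bmp6, with 1.53 and 1.69 FPKM in the placodes and 7.15 and 7.02 FPKM in the SMGs (log2 difference −1.63, adjusted p = 1.56e-05). Without SMG sample 1, 1 gene of the list was lower in place of 2, since the mean of Rspo2, a Wnt agonist gene, was then under the minimum.

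**Figure D4:**
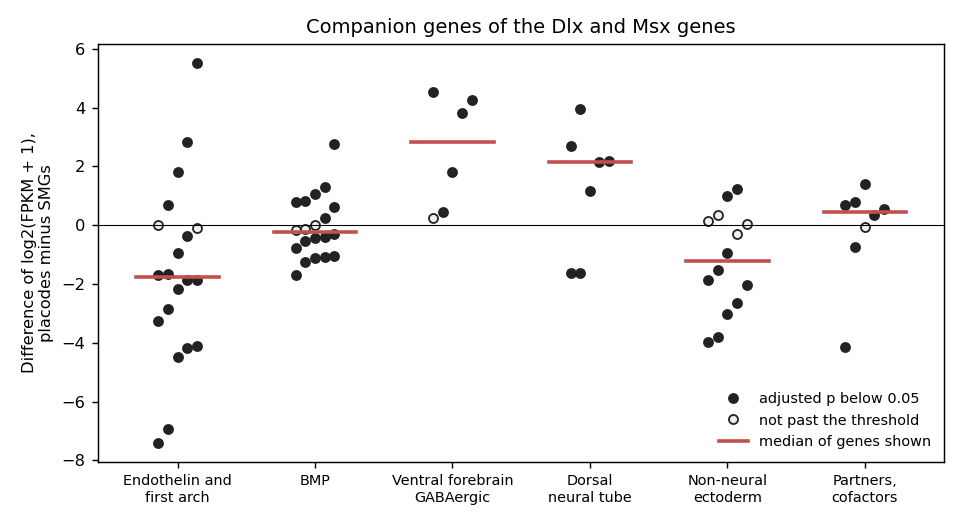
Differences of mean log2(FPKM + 1), placodes minus SMGs, for the tested genes of 6 lists around the Dlx and Msx genes, leaving out genes listed at 0 in a whole group. Filled points passed an adjusted p of 0.05, open points did not, and red lines mark the median of the genes shown. Some of the genes shown reached the minimum mean FPKM through a single group and had to differ. Arch and ectoderm genes lie mostly below 0 (medians −1.78 and −1.22), forebrain GABAergic and dorsal neural tube genes mostly above (medians 2.82 and 2.15), and BMP genes on both sides.

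The RNA levels of genes of BMP signalling, the classic input to Msx1 and Msx2, differed in both directions. Of 22 genes of the pathway 20 were tested, of which 7 were higher, 10 were lower and 3 were not called, with a median log2 difference of −0.24. Among all tested features, 35.7% were higher and 40.4% were lower, so such a split is not particular to this pathway. The ligand genes Bmp2, Bmp4 and Bmp7 were all lower in the placodes. Bmp4, the lowest of the list, had 2.75 and 2.70 FPKM in the placodes and 11.0 and 10.8 FPKM in the SMGs (log2 difference −1.68, adjusted p = 7.70e-06). Among receptors, Bmpr1a fell by 0.53 (adjusted p = 2.18e-04), whereas Bmpr1b was higher by 1.07 (adjusted p = 2.99e-04). Among target genes, Id2, Id3 and Id4 were higher and Id1, Smad6 and Smad7 were lower. Id4, the highest of the list and also a gene of neural progenitors, had 21.1 and 20.9 FPKM in the placodes and 2.28 and 2.19 FPKM in the SMGs (log2 difference 2.76, adjusted p = 7.93e-07). The calls of Bmpr2, Smad7 and Nog were each lost when a single sample was left out, with the highest adjusted p at 0.0850 for Bmpr2, 0.177 for Smad7 and 0.0810 for Nog, all without placode sample 2.

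Of 9 genes for partners and cofactors of Dlx and Msx proteins, 8 were tested, with 5 higher, 2 lower and 1 not called (median 0.46). The extremes were both Groucho-type corepressors, which bind homeodomain repressors. Tle1 had 50.5 and 53.2 FPKM in the placodes and 20.4 and 17.5 FPKM in the SMGs (log2 difference 1.41, adjusted p = 1.38e-05), and Tle2 had 0.816 and 1.21 FPKM in the placodes and 34.3 and 34.7 FPKM in the SMGs (log2 difference −4.15, adjusted p = 6.99e-07). Maged1, which encodes a binding partner of Dlx5 and Msx2, was at 269 and 274 FPKM in the placodes and 281 and 281 FPKM in the SMGs and was not called (adjusted p = 0.389).

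The genes whose profile over the 4 samples was nearest to the leading member of each group were taken by Euclidean distance in log2(FPKM + 1) over 22035 other genes, as a description. Near Dlx1 were Pdgfd (distance 0.20) and Gal (0.23). Nearest to Msx3 were Prl2a1 (distance 0.11), H2-Ab1 (0.17) and Lamp5 (0.23), each listed at 0 in at least 1 SMG sample.

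Cell type markers also differed between the groups, where 76.2% of all tested features were called. Many of them, such as Krt5, Hbb-y and Myog, reached the minimum through a single group and had to differ, so their counts are a description. All 10 mesenchyme markers were lower in the placodes, with a summed level of 219 and 215 FPKM in the placodes and 2173 and 2121 FPKM in the SMGs, and Col3a1 leading in both groups. Of 10 salivary epithelium markers 8 were lower and 2, Sox9 and Krt19, were higher, with sums of 65.1 and 67.2 FPKM in the placodes and 622 and 600 FPKM in the SMGs. Krt5, Krt14 and Krt15 had a value of 0 in each placode sample, and Pitx1 led in the SMGs. All 9 tested neural markers of 10 were higher in the placodes, with sums of 968 and 1007 FPKM against 105 and 96.5 FPKM in the SMGs, led by Tubb3, and Olig2 was listed at 0 in both SMG samples. Of 7 neural crest and Schwann precursor markers 6 were tested, with 1 higher (Ednrb), 4 lower and 1 not called. Their sums were 130 and 126 FPKM in the placodes and 64.2 and 60.4 FPKM in the SMGs. Ednrb alone held 117 and 115 FPKM of the placode sums and 10.5 and 10.9 FPKM of the SMG sums. Every tested marker of endothelium (6 of 6), erythroid cells (4 of 6), skeletal muscle (5 of 6) and macrophages (3 of 5) was lower in the placodes. Their sums were 9.75 and 9.32 against 118 and 124 FPKM, 0.224 and 0.399 against 2264 and 2154 FPKM, 2.88 and 2.33 against 91.3 and 68.2 FPKM, and 2.45 and 2.95 against 13.4 and 11.9 FPKM. Among these, Hbb-y, Hba-x, Myog, Myf5, Aif1 and C1qa were listed at 0 in both placode samples. The part of these cell types in the levels of the Dlx and Msx genes was not tested, and in such bulk samples fewer cells of a type and less RNA per cell cannot be told apart.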

How the data were processed

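Total RNA of 2 samples of PSC-derived SG placodes and 2 of E12.5 SMGs, grouped by the sample labels, was sequenced as paired-end reads. The authors mapped the reads with HISAT2 and deposited FPKM values per gene. The submitters' processing notes list GRCm38 among their builds, while the annotation, the strandedness and the program behind the FPKM are not given in the sources used here. Whole reads could not be recovered from the values, and the depth behind them is therefore unknown, with no counting interval to give. FPKM sums ran from 361963 to 384773 per sample, with 12636 to 12807 features at an FPKM of at least 1.

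For every feature whose mean FPKM reached 1, log2(FPKM + 1) was fitted on group alone in limma (version 3.58.1, under R 4.3.3), using lmFit and the trended form of eBayes, with two-sided tests. Benjamini-Hochberg adjustment covered all 13193 of these features. Differences on this scale understate ratios of low genes. Gene positions came from GENCODE M21, in which 22022 of 22036 Ensembl genes were found by identifier. The procedure was tested on simulated data.

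The members and lists were chosen with earlier results of these data known. Named genes are the members, the highest and lowest tested gene of each of the companion lists, the leading marker genes of each group, the nearest neighbours, and the 3 nearest profiles. Other list genes were named for their roles or because their calls changed, after their values were seen. Some genes that this rule would name are not reported here.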

Additional observations from a re-analysis of the deposited data

How the results depend on the processing

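With 2 samples per group, a depth that is unknown and 76.2% of features called, a call says little beyond its size, and members under a mean FPKM of 1 were outside the test. With no minimum of mean FPKM, 2 members were called higher in place of 1 (Msx2 and Msx3), and the same 2 were at least 2-fold higher. With a minimum of 5, 1 member was called lower in place of 4, and 1 at least 2-fold lower, because only Dlx1 and Msx3 then stayed in the test; of the companion lists, 19 genes were then higher in place of 31 and 23 lower in place of 36. At a detection level of 0.1 FPKM, 6 members were detected in the placodes in place of 2, and at 5 FPKM 1 was detected in the placodes and 3 in the SMGs in place of 6. Leaving out each sample in turn gave 1 member called higher each time and 4 to 5 called lower, 26 to 33 companion genes higher and 33 to 37 lower. The same replicate numbers in both groups were not taken as pairs in the main fit. Deviations from the group means correlated at −0.03 over 13193 features, which with 2 samples per group cannot show whether samples were prepared together. With a replicate block, 1 member was called higher and 4 lower, as without it, 32 companion genes were higher and 36 lower, and Dlx3 had an adjusted p of 0.0520. Rescaling to equal sums (TPM), median-ratio scaling and quantile normalization left the median of all tested features between −0.04 and 0.01 and kept 1 member higher and 4 lower. The balance of all tested features turned from 4716 higher and 5333 lower to 5074 and 4965 under TPM and to 5088 and 4997 under median-ratio scaling. No log2 difference of a member changed sign under any alternative run. An alternative without the loci that carry no gene name, chosen after seeing the data, gave 1 member higher and 4 lower.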
